A study of Homo sapiens with 9 samples.

Results

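The baseline transcriptome of MDA-MB-231 cells that received a control siRNA is described here from 3 of the 9 RNA-seq libraries of the series. The 3 libraries were taken by their treatment label, and they count 25605 of the 60612 listed genes at least once. MDA-MB-231 is an established human breast cancer cell line, labelled triple-negative, so all libraries come from 1 line. The cells grew in DMEM with fetal bovine serum, were transfected with the control siRNA with Lipofectamine, and were harvested 48 hours later for RNA extraction with TRIzol. The study also has 2 groups of 3 libraries with siRNAs against MILIP, a long noncoding RNA, and these are not compared here. The labels do not say that the 3 control libraries came from separate cultures, so the spread given with each mean may be technical.

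Triple-negative breast cancers lack the estrogen and progesterone receptors and have no amplified ERBB2 receptor. The mammary epithelium has a luminal layer, which carries hormone receptors and simple keratins, and a basal layer, which carries stratified keratins and contractile proteins. Carcinoma cells of mesenchymal type have lost much of the junction programme of epithelium, contain vimentin filaments, and are known for motility, secreted proteases and inflammatory cytokines.

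Levels are in FPKM, the fragments of a gene divided by its exonic length and by the library total. The divisor is the exonic length listed for the gene, which need not be the length of the transcripts present. Levels, ranks and ratios between genes depend on it and are approximate. A gene is called on where it has an FPKM of at least 1 in each of the 3 libraries, and off where its mean FPKM is below 0.1. Some genes whose rounded values give a mean of 0.1, CDH1 among them, were also called off. Genes that are off include those with no counts in any library, and the remaining genes lie between. A count of 0 in a library allows a level of up to 3 counts, which takes in counting error and no other error. The libraries held 16204696, 15281220 and 17241852 counts, so 3 counts correspond to 0.185, 0.196 and 0.174 CPM, which is a count divided by the library total.

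The 4 genes taken as markers of the line were on in every library. VIM encodes vimentin, the intermediate filament of mesenchymal cells, and lies on chromosome 10 (17228241 to 17237593, plus strand, GRCh38 coordinates as for all genes here). It stood at 875, 946 and 928 FPKM in libraries 1, 2 and 3, which is 916 ± 37.1 (SD, n = 3) and rank 26 of 19874 protein-coding genes. AXL, a receptor tyrosine kinase linked to invasion (chromosome 19, 41219223 to 41261766, plus strand), stood at 194, 201 and 187 FPKM, a mean of 194 ± 7.0 (SD, n = 3). The libraries lay close together for both genes, and library 1 was the low library for VIM.

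CD44, the hyaluronan receptor (chromosome 11, 35138882 to 35232402, plus strand), was at 87.8, 82.7 and 77.0 FPKM, a mean of 82.5 ± 5.40 (SD, n = 3). EGFR, the receptor for epidermal growth factor (chromosome 7, 55019017 to 55211628, plus strand), was at 43.8, 43.7 and 30.8 FPKM, a mean of 39.4 ± 7.46 (SD, n = 3). Library 3 was the low library for EGFR, while libraries 1 and 2 differed little. Library 3 also read lower than the others for long genes in general, by a median of -0.14 on the log2 scale over 2205 genes with 8000 or more exonic bases, and EGFR has 12515. The part of this in the EGFR values was not tested. All 4 markers overlap an annotated gene on the opposite strand, and reads from overlapping genes cannot be told apart here.

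About as many protein-coding genes were on as were not. Of 19874 protein-coding genes, 9928 were on (50.0%), 7235 were off (36.4%), and 4568 of these had no counts at all (23.0%). These shares are the background for the counts of protein-coding genes in the lists and families below. The median level was 1.15 FPKM over all protein-coding genes and 7.94 FPKM over those that were on. The largest share of RNA came from the middle of the range: 3835 genes at 10 to 100 FPKM held 49.3% of all counts. The 338 genes at 100 to 1000 FPKM held 22.8%, and the 21 genes at 1000 FPKM or more held 7.58%. Protein-coding genes took 97.5% ± 0.0400 of counts (SD, n = 3), and the 100 genes with most counts took 20.1% ± 0.297.

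Of the 30 most abundant genes, 12 are encoded by the mitochondrial genome, which gave 5.00% ± 0.0984 of all counts (SD, n = 3). MT-CO1, the catalytic subunit of cytochrome c oxidase, was highest, at 9063, 9033 and 8918 FPKM. The highest nuclear gene was FTL, the light chain of the iron store ferritin, at 3131, 3119 and 3302 FPKM. FTH1, the ferritin heavy chain, stood at 1010.3, 1003 and 1013 FPKM, below FTL in every library.

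GAPDH, a glycolytic enzyme, was at 2370.0, 2520.2 and 2629.9 FPKM. MT2A, a metallothionein that binds zinc and copper, was at 1521, 1529.6 and 1670.3 FPKM. Both were highest in library 3. TMSB10, an actin-binding thymosin, averaged 1509.7 ± 147 FPKM, and S100A6, a calcium-binding protein, 1384 ± 174 (SD, n = 3 each). EEF1A1, the elongation factor that brings aminoacyl-tRNA to the ribosome, averaged 1329.6 ± 38.8 FPKM. PFN1 (profilin, an actin monomer binder) at 1179 ± 77.2 and TUBB (a beta tubulin) at 989 ± 18.7 FPKM were also among the 30, as were the actins ACTB and ACTG1 and the ribosomal proteins RPS12 and RPS18. HMGA1, an architectural chromatin protein that is high in many carcinomas, stood just above VIM at 893, 1006 and 975 FPKM, and the libraries of HMGA1 and VIM overlapped.

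The list also holds 3 processed pseudogenes, RPL41P1, PPIAP22 and RPL39P3, at 1783 ± 21.9, 1252 ± 109 and 1235 ± 36.0 FPKM (SD, n = 3 each). Processed pseudogenes are near copies of spliced transcripts of their parent genes, so these values are uncertain, since counting could assign reads of the parent to the copy. Ribosomal proteins made up 15 of the 60 most abundant nuclear protein-coding genes, a count that reads assigned to copies such as RPL41P1 could lower. Several secreted or restricted genes reached that upper range, and they are named here after their values were seen. SPANXB1, a gene usually restricted to testis, was at 577, 514 and 593 FPKM, and its near copies in the SPANX family make the value uncertain. G0S2, an inhibitor of fat breakdown, averaged 794 FPKM, and SAA1, an acute-phase protein, 403 FPKM.

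Of 36 mesenchymal genes, 28 were on, 4 lay between and 4 were off, with a median of 28.7 FPKM beside 50.0% on and a median of 1.15 FPKM over all protein-coding genes. The list was chosen with the line's character and earlier results known, so its share on is a description and was not tested. After VIM came NT5E, the surface nucleotidase CD73, at 283, 283 and 263 FPKM. CCN1, a matricellular target of YAP, was at 177, 177 and 178 FPKM, and its libraries differed by less than those of any other gene named in this paragraph. MSN (moesin, a link from actin to the membrane) averaged 145 ± 8.63 FPKM and LOXL2 (a collagen cross-linking oxidase) 131 ± 3.84 (SD, n = 3 each). PLAU, the urokinase protease, and its receptor PLAUR averaged 97.9 ± 2.26 and 82.6 ± 3.38 FPKM.

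Several textbook genes of the mesenchymal state were nonetheless low. CDH2, the N-cadherin gene, had 3, 7 and 8 counts and a mean of 0.0400 FPKM. CDH11, another mesenchymal cadherin, averaged 0.0567 FPKM, and SPARC, a matrix glycoprotein, 0.240 FPKM. TWIST1 and TWIST2, transcription factors of mesenchyme, had 0 counts in each library, and for TWIST1 3 counts would be 0.0983 FPKM.

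**Figure D1:**
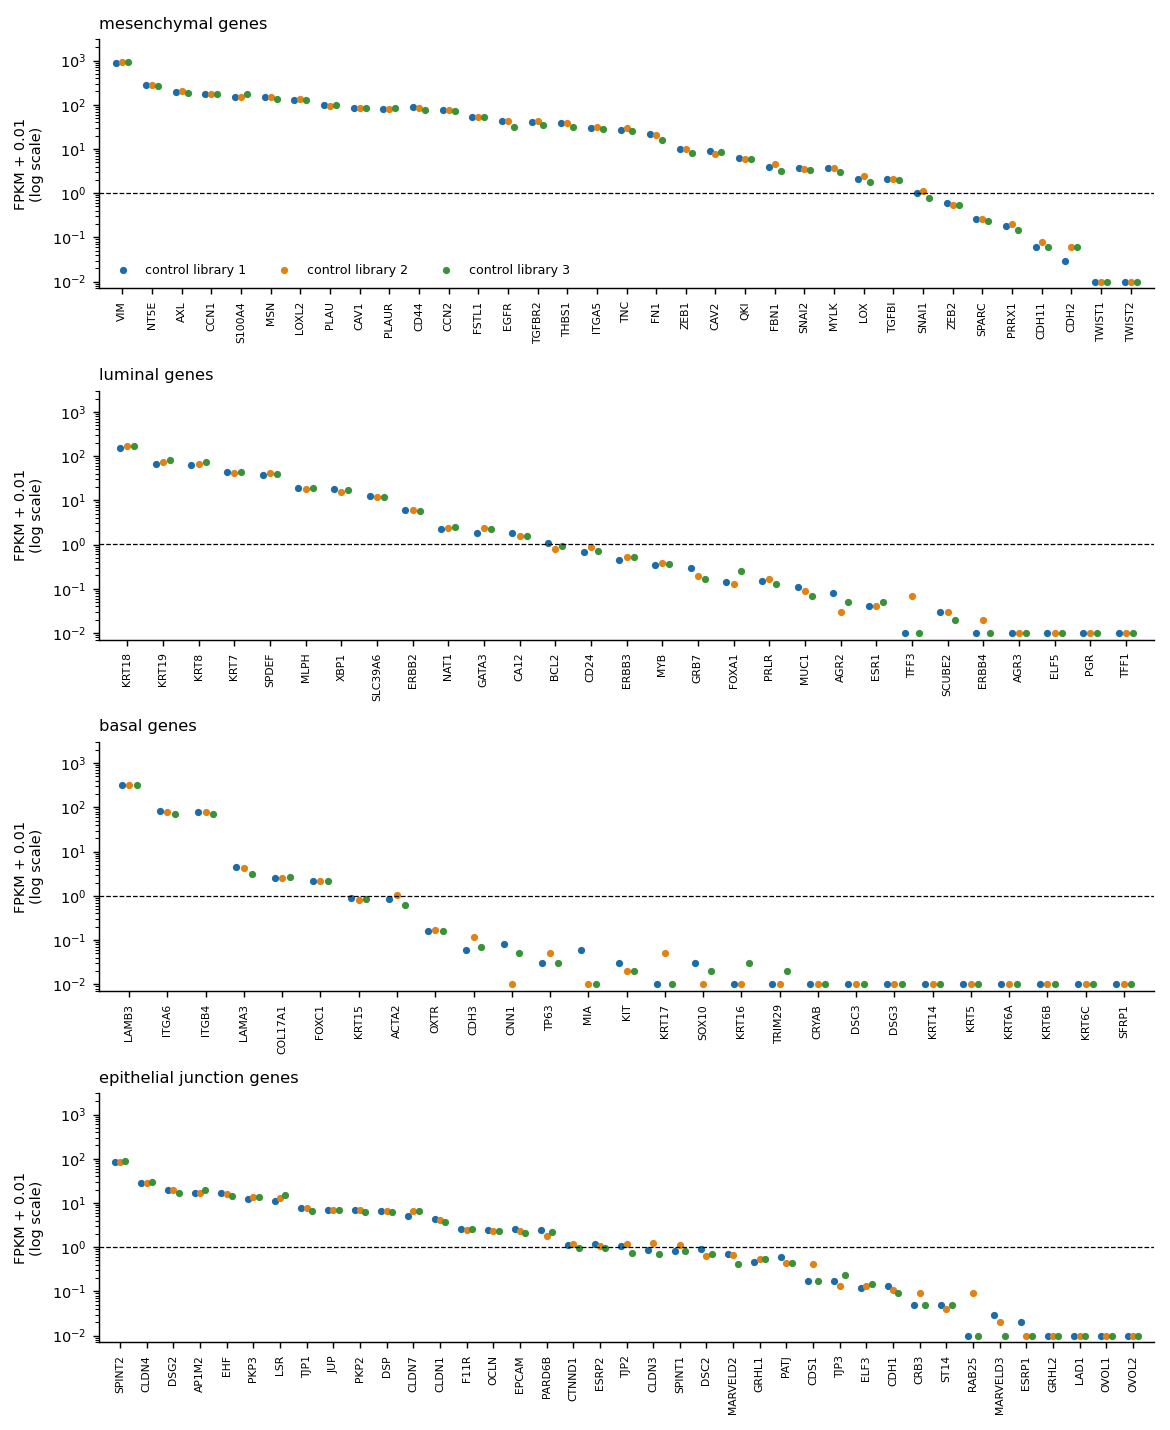
FPKM + 0.01 on a log axis for genes of the mesenchymal, luminal, basal and epithelial junction lists, a few members not drawn, ordered by mean, with 1 point for each of the 3 control libraries and a dashed line at 1 FPKM. Mesenchymal genes that are on fill most of their panel, whereas in the basal panel the genes after FOXC1, at 2.14 FPKM, lie below the line but for ACTA2 in library 2, at 1.06 FPKM, and points near 0.01 are genes with no or very few counts.

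Among transcription factors tied to epithelial-mesenchymal transition, 13 of 21 were on, 61.9% beside 50.0% of protein-coding genes. Another 4 lay between and 4 were off. HMGA1 led, followed by FOSL1, a subunit of the AP-1 factor, at 471, 499 and 503 FPKM. ZEB1, a repressor of epithelial genes, was at 9.80, 9.90 and 8.21 FPKM, and its relative ZEB2 at 0.580, 0.520 and 0.540 FPKM, so ZEB1 was 17.0 ± 1.92 times ZEB2 (SD, n = 3). SNAI2 was at 3.74, 3.55 and 3.34 FPKM, above SNAI1 in every library, which at 1.0, 1.1 and 0.78 FPKM crossed the line of 1 FPKM between libraries. YAP1 and the TEAD factors it binds were on, with YAP1 at 27.1 ± 1.84, TEAD4 at 32.6 ± 2.11 and TEAD1 at 21.4 ± 3.21 FPKM (SD, n = 3 each).

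FOSL1 was 6.46 ± 0.0823 times JUN, its partner in AP-1, and 14.2 ± 1.05 times FOSL2 (SD of the ratio over libraries, n = 3). Of 11 AP-1 factors 8 were on (72.7%, beside 50.0% of protein-coding genes) and none was off. JUN stood at 76.1 ± 3.59, JUNB at 22.2 ± 1.13 and JUND at 14.7 ± 0.381 FPKM. The immediate early genes FOS and FOSB, which serum induces briefly, were between, at 0.783 ± 0.0513 and 0.177 ± 0.0208 FPKM.

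Epithelial junction genes were mixed. Of 40 such genes, 18 were on (45%, beside 50.0% of protein-coding genes), 12 lay between and 10 were off. Their median of 1.03 FPKM was near the 1.15 FPKM of all protein-coding genes. CDH1, the E-cadherin gene, had 12, 9 and 8 counts, which is 0.12, 0.10 and 0.08 FPKM. EPCAM, an epithelial adhesion molecule, was on at 2.59, 2.29 and 2.03 FPKM, above CDH1 in every library. Other members were higher: SPINT2, an inhibitor of membrane proteases, at 86.1 ± 3.83, CLDN4, a tight junction claudin, at 29.2 ± 0.769, and the desmosomal cadherin DSG2 at 18.6 ± 1.79 FPKM (SD, n = 3 each).

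The epithelial regulators GRHL2, OVOL1 and OVOL2 and the anchoring filament gene LAD1 had no counts. ESRP1, an epithelial splicing factor, was off, while its relative ESRP2 was at 1.17, 1.08 and 0.960 FPKM, on either side of 1 FPKM. Of 21 epithelial transcription factors, 8 were on (38.1%, beside 50.0% of protein-coding genes), 4 lay between and 9 were off. SPDEF, a factor of secretory epithelium, was at 38.2, 41.4 and 38.4 FPKM, TFAP2C at 26.9 ± 0.652, EHF at 15.9 ± 1.34 and FOXA2 at 13.7 ± 0.679 FPKM. FOXA1, the pioneer factor of luminal cells, averaged 0.163 ± 0.0666 FPKM, so FOXA2 was above FOXA1 in each library.

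Of 30 luminal genes, 12 were on (40%, beside 50.0% of protein-coding genes), 7 lay between and 11 were off. Their median was 0.420 FPKM. The simple keratins KRT18, KRT19, KRT8 and KRT7, which form the filaments of glandular epithelium, averaged 162 ± 8.74, 74.6 ± 8.02, 66.9 ± 5.46 and 42.7 ± 1.29 FPKM (SD, n = 3 each). VIM was 5.67 ± 0.108 times KRT18 and 13.7 ± 0.938 times KRT8. The other 8 members on were SPDEF, given above, MLPH, XBP1, SLC39A6, ERBB2, NAT1, GATA3 and CA12, where MLPH, a linker of myosin to vesicles, was at 18.8 ± 0.969 and XBP1, a factor of the secretory stress response, at 17.1 ± 1.34 FPKM. KRT8 and KRT18 overlap on opposite strands, so their reads cannot be told apart where they overlap.

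ESR1, the estrogen receptor, had 6, 7 and 9 counts, a mean of 0.0333 FPKM, and PGR, the progesterone receptor, had none, where 3 counts would be 0.0134 FPKM. ERBB2, the receptor HER2, was on at 5.91, 6.16 and 5.64 FPKM. The estrogen-induced peptide TFF1 had no counts. GATA3, a luminal transcription factor, was on at 1.84, 2.35 and 2.20 FPKM.

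The basal list held the largest share of silent genes among the 4 lineage lists: 18 of 28 were off, 3 lay between and 7 were on. The share on was 25%, beside 50.0% of protein-coding genes, and the median was 0.0150 FPKM. KRT5, KRT14, KRT6A, KRT6B and KRT6C, the keratins of basal and stratified epithelium, had no counts, and 3 counts of KRT5 would be 0.0475 FPKM. TP63, the basal master regulator, was off. ACTA2, the smooth muscle actin of myoepithelium, was at 0.85, 1.06 and 0.60 FPKM.

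What was on in that list includes the hemidesmosome and chains of the laminin it binds. LAMB3, a beta chain, was at 319, 320.1 and 324 FPKM, and LAMA3, its alpha chain partner, at 4.39, 4.33 and 3.17 FPKM. The chains assemble in equal number as proteins, which were not measured. LAMB3 was 72.6, 73.9 and 102 times LAMA3 in libraries 1, 2 and 3, a mean of 82.9 ± 16.8 (SD, n = 3). The libraries of LAMB3 and LAMA3 did not overlap. Library 3 read lower for long genes, and LAMA3 has 14678 exonic bases beside 4647 for LAMB3. The part of gene length in this ratio was not tested. ITGA6 and ITGB4, the integrin pair that binds this laminin, averaged 77.0 ± 6.35 and 74.5 ± 4.57 FPKM, with overlapping libraries and a ratio of 1.03 ± 0.0337.

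Among receptor tyrosine kinases 21 of 58 were on (36.2%, beside 50.0% of protein-coding genes), 11 lay between and 26 were off. Of those off, 9 had no counts, and the median of the 58 was 0.140 FPKM. EPHA2, an ephrin receptor on chromosome 1 (16124337 to 16156069, minus strand), was highest at 251, 263 and 258 FPKM. EPHA2 stood above AXL in every library, at 1.33 ± 0.0473 times its level (SD, n = 3). AXL was 4.44, 4.60 and 6.07 times EGFR in libraries 1, 2 and 3, a mean of 5.03 ± 0.897 (SD, n = 3). The ratio was highest in library 3, the low library for EGFR. MET, the receptor of hepatocyte growth factor, was next at 21.2, 21.1 and 17.3 FPKM. PTK7, a pseudokinase of WNT signalling, followed at 19.7 ± 0.643 FPKM, and the libraries of MET and PTK7 overlapped.

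AXL has close relatives in MERTK and TYRO3, all receptors of the ligand GAS6. MERTK was at 7.55 ± 0.363 FPKM and TYRO3 at 2.74 ± 0.0513, so AXL was 25.7 ± 0.875 times MERTK and 70.8 ± 1.95 times TYRO3 (SD, n = 3 each). Within the EGFR family, ERBB2 was on, ERBB3 lay between at 0.480 ± 0.0436 FPKM, and ERBB4 was off. FGFR1, a fibroblast growth factor receptor, was on at 16.6 ± 0.485 FPKM, FGFR3 and FGFR4 lay between, and FGFR2 had no counts. PDGFRA, FLT3, NTRK2 and NTRK3 also had no counts.

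**Figure D2:**
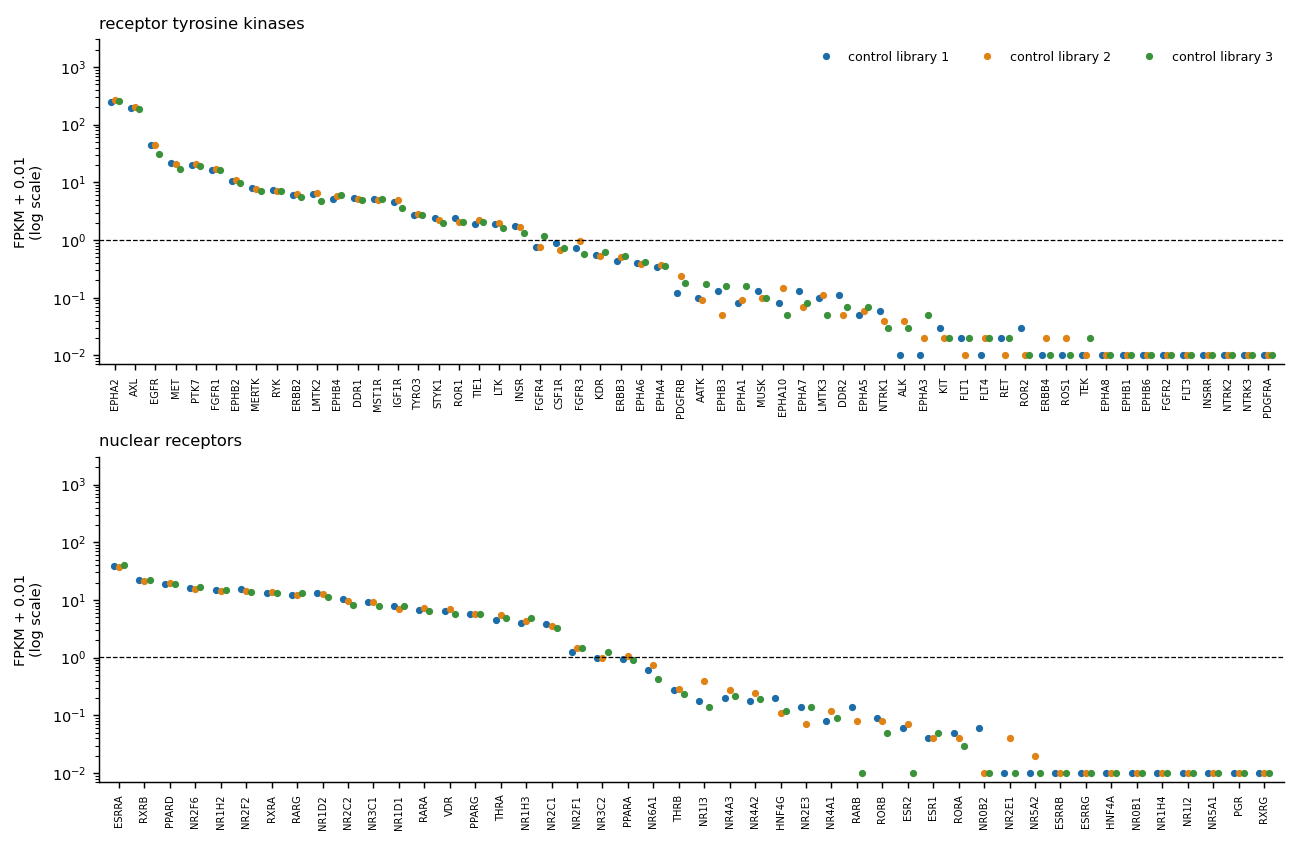
FPKM + 0.01 on a log axis for 58 receptor tyrosine kinases and for nuclear receptors, a few of these not drawn, ordered by mean, with 1 point for each of the 3 control libraries and a dashed line at 1 FPKM. EPHA2 and AXL stand apart at the upper end of the kinases, 21 of which are on, while the nuclear receptors that are on decline from 38.6 FPKM for ESRRA to 1.40 FPKM for NR2F1.

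Nuclear receptors, ligand-controlled transcription factors, were on in 19 of 48 cases, 39.6% beside 50.0% of protein-coding genes. A further 9 lay between and 20 were off, 10 of these without counts. ESRRA, an orphan relative of the estrogen receptor that controls energy metabolism, was highest at 39.2, 37.2 and 39.6 FPKM. RXRB, a shared dimer partner, stood at 22.0 ± 0.274 FPKM and PPARD, a fatty acid sensor, at 19.3 ± 0.481 (SD, n = 3 each). The glucocorticoid receptor NR3C1 was at 9.37, 9.35 and 7.94 FPKM, and the vitamin D receptor VDR at 6.38, 6.94 and 5.78 FPKM. ESR2, RARB and RORA were off, and HNF4A and NR1I2 had no counts.

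All 3 receptor chains of transforming growth factor beta were on. TGFBR2, the ligand-binding kinase, was at 41.1, 42.2 and 34.4 FPKM, which is 5.04 ± 0.414 times TGFBR1, its signalling partner (SD, n = 3). The co-receptors ENG and TGFBR3 averaged 39.3 ± 2.30 and 9.08 ± 0.850 FPKM. In all, 8 of 14 serine-threonine kinase receptors and co-receptors were on (57.1%, beside 50.0% of protein-coding genes), 3 lay between and 3 were off.

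Cytokine genes reached the levels of structural genes. Of 34 cytokine and chemokine ligands, 14 were on, 7 lay between and 13 were off, so the share on was below the 50.0% of protein-coding genes while the highest members were very abundant. CXCL1, a chemokine that attracts neutrophils (chromosome 4, 73869393 to 73871308, plus strand), was at 526, 499.8 and 551 FPKM. CSF3, the granulocyte colony-stimulating factor (chromosome 17, 40015361 to 40017813, plus strand), was at 349, 358 and 372 FPKM. IL1B, a central inflammatory cytokine, was at 128, 114 and 113 FPKM. The libraries of these 3 genes did not overlap with each other.

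CSF2 (granulocyte-macrophage colony-stimulating factor) averaged 62.4 ± 4.50, CXCL8 (interleukin 8) 52.9 ± 3.64, CSF1 (the macrophage growth factor) 52.1 ± 2.61 and LIF 37.7 ± 0.478 FPKM (SD, n = 3 each). The libraries of CXCL8 and CSF1 overlapped, and those of CSF2 lay above both. IL11 and IL6, which like LIF signal through IL6ST, were at 22.1 ± 2.95 and 15.0 ± 0.556 FPKM. CXCL10 and CCL5, chemokines of interferon responses, were low at 0.180 ± 0.135 and 0.173 ± 0.0513 FPKM. CXCL12, the ligand of CXCR4, and the interferon gene IFNB1 had no counts.

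The matching receptors did not mirror the ligands. None of 22 chemokine receptors was on, beside 50.0% of protein-coding genes. Of the 22, 3 lay between and 19 were off, with 12 of these without counts. CXCR1 and CXCR2, the receptors of CXCL1 and CXCL8, had no counts, and CXCR4 had 4, 7 and 3 counts. CSF3R, the receptor of CSF3, was off. The genes of some other pairs were present together: IL6ST, the shared signalling chain of the IL6 family, was at 36.1, 33.3 and 28.0 FPKM, 51.0 ± 5.04 times IL6R, and LIFR, the partner for LIF, was on at 1.57 ± 0.270 FPKM.

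Across 39 cytokine receptors 19 were on, 11 lay between and 9 were off, a share on of 48.7%, near the 50.0% of protein-coding genes. TNFRSF1A, the main receptor of tumour necrosis factor, was highest at 39.9 ± 2.14 FPKM, and its libraries lay above those of IL6ST. OSMR, the oncostatin M receptor, averaged 20.8 ± 2.16 and IL4R 22.0 ± 0.564 FPKM, with overlapping libraries. IL1R1, which binds IL1A and IL1B, lay between at 0.387 ± 0.0611 FPKM.

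**Figure D3:**
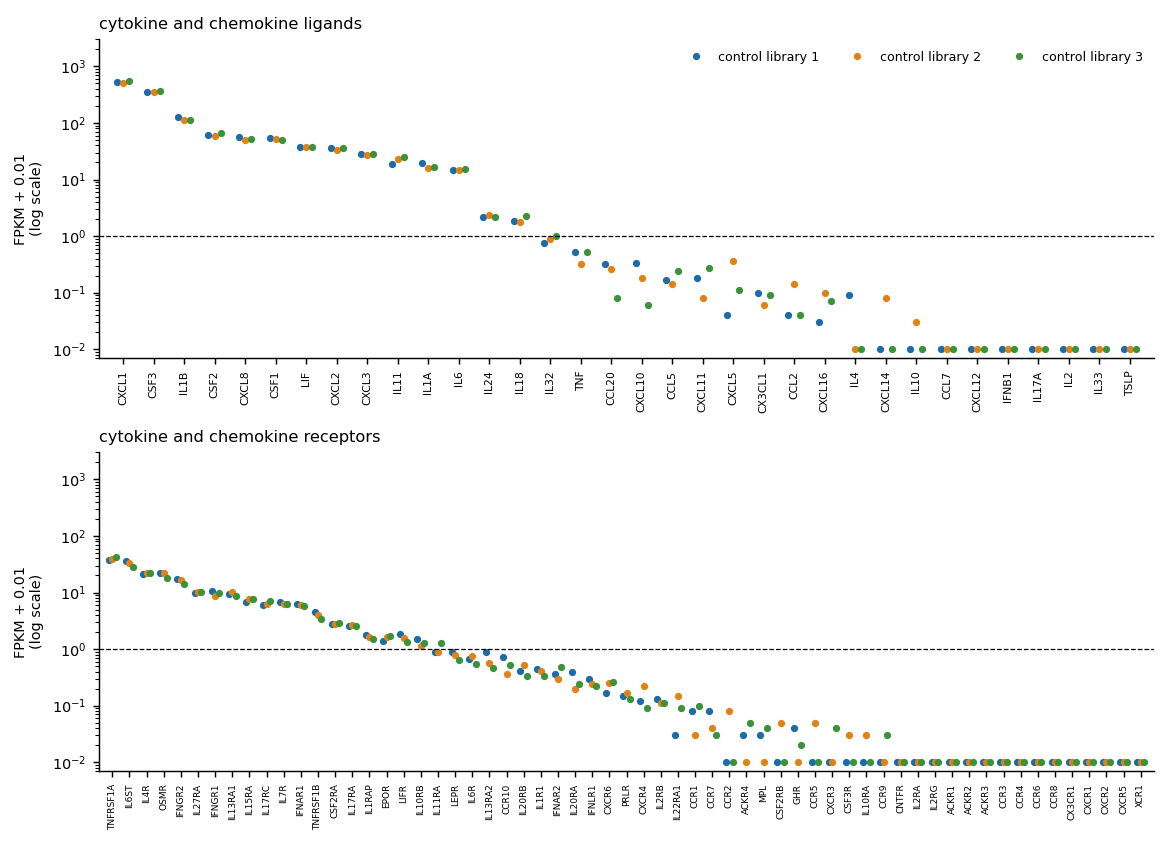
FPKM + 0.01 on a log axis for 34 cytokine and chemokine ligands and for 39 cytokine and 22 chemokine receptors, ordered by mean, with 1 point for each of the 3 control libraries and a dashed line at 1 FPKM. CXCL1, CSF3 and IL1B exceed 100 FPKM in each library, the highest receptor gene is TNFRSF1A at 39.9 FPKM, and all 22 chemokine receptors lie below the line.

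CXCL1, CXCL2, CXCL3 and CXCL8 lie in 1 chemokine cluster on chromosome 4, and their promoters are printed to show the letters they share while their levels differ. CXCL1 was 15.0 ± 0.286 times CXCL2, 18.7 ± 0.501 times CXCL3 and 9.95 ± 0.620 times CXCL8 (SD, n = 3 each). The promoter of MT2A, the most abundant metallothionein, is printed beside them. Each run is the 120 bases before the RefSeq start in GRCh38.p14, 5′ to 3′ on the strand of the gene. They lie at chr4:73869273-73869392 (plus strand) for CXCL1, chr4:74099196-74099315 (minus) for CXCL2, chr4:74038690-74038809 (minus) for CXCL3, chr4:73740449-73740568 (plus) for CXCL8 and chr16:56608464-56608583 (plus) for MT2A. Capitals mark GGAATTTCC, the letters of a site for NF-kB, TGACTCA, those of a site for AP-1, and TATAAA, those of a TATA box.
CXCL1: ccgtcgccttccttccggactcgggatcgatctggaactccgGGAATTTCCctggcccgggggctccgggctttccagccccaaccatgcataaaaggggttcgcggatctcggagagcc
CXCL2: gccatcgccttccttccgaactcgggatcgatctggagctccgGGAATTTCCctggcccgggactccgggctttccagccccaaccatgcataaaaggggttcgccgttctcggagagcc
CXCL3: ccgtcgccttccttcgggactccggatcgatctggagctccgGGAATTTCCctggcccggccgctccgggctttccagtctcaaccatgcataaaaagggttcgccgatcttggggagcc
CXCL8: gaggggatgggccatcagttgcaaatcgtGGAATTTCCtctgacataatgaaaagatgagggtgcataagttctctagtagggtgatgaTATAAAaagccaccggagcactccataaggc
MT2A: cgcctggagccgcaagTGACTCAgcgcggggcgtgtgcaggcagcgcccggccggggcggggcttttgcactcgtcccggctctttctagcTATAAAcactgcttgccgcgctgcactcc

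In CXCL1 and CXCL3 the 9 letters GGAATTTCC lie 78 to 70 bases before the start, in CXCL2 77 to 69 and in CXCL8 91 to 83. Searched on both strands over 250 bases before the start, these letters occur in 0.371% of 11319 promoters of protein-coding genes with a single RefSeq start. CXCL1, CXCL2 and CXCL3 are near copies of each other, so their matches are not independent. TATAAA, searched on the gene's strand, lies 31 to 26 bases before the start of CXCL8 and 29 to 24 before that of MT2A. TGACTCA, searched on both strands, lies 104 to 98 bases before the start of MT2A, is also found before the start of CXCL8 outside the 120 bases printed, and occurs in 3.25% of the promoters. None of these matches overlaps another, and binding of a factor was not measured.

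The base composition of promoters ran with the level of their genes. The observed count of CpG divided by the count expected from the C and G content, over 300 bases around the start, had a median of 0.293 for 2691 genes with no counts. It was 0.481 for genes that were off with some counts, 0.751 for those between, and 0.861 to 0.905 for the 3 classes that were on. The letters TATAAA in the window 45 to 16 bases before the start followed another order. They occurred in 10.6% of promoters of genes with no counts, in 1.08% of those on below 10 FPKM, in 1.74% of those on at 10 to 100 FPKM, and in 7.44% of 215 promoters of genes at 100 FPKM or more, beside 4.56% of all 11319. VIM, at 0.584, and IL1B, at 0.155, lie below the CpG median of the class that is on at 100 FPKM or more. These shares describe the promoters, and genes of 1 family share sequence.

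**Figure D4:**
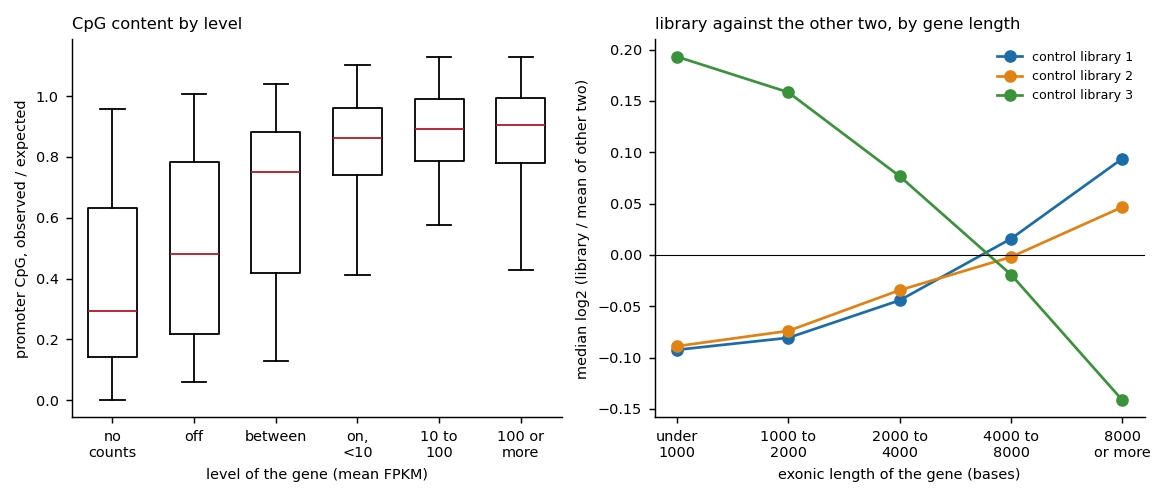
Left, the observed over expected CpG content of 11319 promoters by level of the gene in mean FPKM, where boxes span the 25th to 75th percentiles, red lines are medians and whiskers reach the 5th and 95th percentiles. Right, the median log2 ratio of each control library to the mean of the other two libraries by exonic length in bases, which for library 3 falls from 0.19 for genes under 1000 bases to -0.14 for genes of 8000 bases or more.

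Surface molecules of immune recognition were on in 22 of 32 cases (68.75%, beside 50.0% of protein-coding genes), with 7 between and 3 off. B2M, the light chain of class I molecules, was at 114, 111 and 122 FPKM. The class I gene HLA-E averaged 96.4 ± 3.36, HLA-B 42.6 ± 5.60 and HLA-C 6.49 ± 1.36 FPKM (SD, n = 3 each), and since these genes are similar in sequence and vary between individuals, their values depend on how reads were assigned. CD274, the checkpoint ligand PD-L1, was at 10.8, 10.3 and 8.29 FPKM. The class II chain HLA-DRA and the class II chaperone CD74 were on at 13.98 ± 0.911 and 31.6 ± 0.799 FPKM, while HLA-DQA1 and HLA-DQB1 had no counts.

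Of 70 G protein-coupled receptors 18 were on (25.7%, beside 50.0% of protein-coding genes), 21 lay between and 31 were off. F2RL1, the protease-activated receptor PAR2, was highest at 91.8, 89.0 and 91.2 FPKM, and its libraries lay far above those of the next member, the adenosine receptor ADORA2B, at 41.0 ± 1.98 FPKM. Of the adrenergic receptors ADRB1 lay between and ADRB3 had no counts. Among WNT receptors FZD2 led at 38.6 ± 2.70 FPKM. SMO, the signal transducer of Hedgehog, had no counts, and 3 counts would be 0.0413 FPKM.

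Of 33 integrins and other adhesion genes 16 were on, 4 lay between and 13 were off, a share on of 48.5%, near the 50.0% of protein-coding genes. ITGB1, the shared beta chain, was at 213, 198 and 191 FPKM, and its partner ITGA3 at 139, 145 and 139 FPKM. Among integrin chains known from leukocytes ITGB2 and ITGAE were on, at 7.21 ± 0.572 and 4.54 ± 0.505 FPKM (SD, n = 3 each), and ITGA4, ITGAL and ITGAM were off. The membrane protease MMP14 stood at 187, 179 and 185 FPKM and the interstitial collagenase MMP1 at 97.8, 88.8 and 94.6 FPKM. Among 23 cadherins just 2 were on, 8.70% beside 50.0% of protein-coding genes. They were CDH4, the retinal cadherin, at 15.4 ± 2.02 and CDH24 at 4.93 ± 0.354 FPKM.

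In the actin and myosin heavy chain families the highest member was a cytoplasmic or nonmuscle form. ACTB and ACTG1, the cytoplasmic actins, averaged 1244 ± 52.3 and 1228 ± 31.2 FPKM with overlapping libraries, whereas the striated muscle actins ACTA1 and ACTC1 had no counts. MYH9, a nonmuscle myosin, was 30.03 ± 1.13 times its relative MYH10. No counts were found for 7 of 12 myosin heavy chains, beside 23.0% of protein-coding genes. LDHA was 2.50 ± 0.109 times LDHB, which favour lactate and pyruvate production respectively (SD, n = 3 each). Of 34 glycolysis genes 21 were on (61.8%, beside 50.0% of protein-coding genes), with ENO1 at 669 ± 32.7 and PKM at 522 ± 18.3 FPKM. The sperm enzyme PGK2 had no counts. The lactate exporter SLC16A3 was on at 66.2 ± 3.92 FPKM, while SLC16A1, the other main lactate carrier, was at 0.470, 0.190 and 0.160 FPKM, low in all libraries and highest in library 1.

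Of 25 genes of RAS-MAPK signalling and the cell cycle 20 were on, 80% beside 50.0% of protein-coding genes. Another 3 lay between and 2 had no counts. CCND1, the cyclin that drives the cell through G1, was at 212, 215 and 205 FPKM, and its kinase CDK4 at 72.2 ± 2.97 FPKM. HRAS, a RAS GTPase, was at 50.3 ± 2.76 FPKM, and BRAF, a kinase of the same pathway, at 0.717 ± 0.112 FPKM (SD, n = 3 each). CDKN2A and CDKN2B, inhibitors of CDK4, were the members without counts.

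CDKN2A lies on chromosome 9 (21967753 to 21995301, minus strand) in a run of 25 neighbouring protein-coding genes that had no counts, from HACD4 to IZUMO3 (20999509 to 24545946), a stretch of 3.55 megabases. The run holds the interferon alpha genes and IFNB1, which are silent in most unstimulated cells, but also MTAP, a methionine salvage enzyme, and KLHL9, a ubiquitin ligase adaptor, which most cells express. On its left FOCAD had 46, 47 and 50 counts and MLLT3 116, 130 and 155. On its right TUSC1 had 233, 233 and 196 counts, and CAAP1 and PLAA were on at 7.96 ± 0.887 and 12.5 ± 1.04 FPKM (SD, n = 3 each). The first and the last gene without counts were the same in all 3 libraries, which come from 1 line. The run is set by counts alone, so its ends need not be edges in the genome. This line is known to lack CDKN2A, but gene copies were not measured here, and the cause of the missing counts was not tested.

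**Figure D5:**
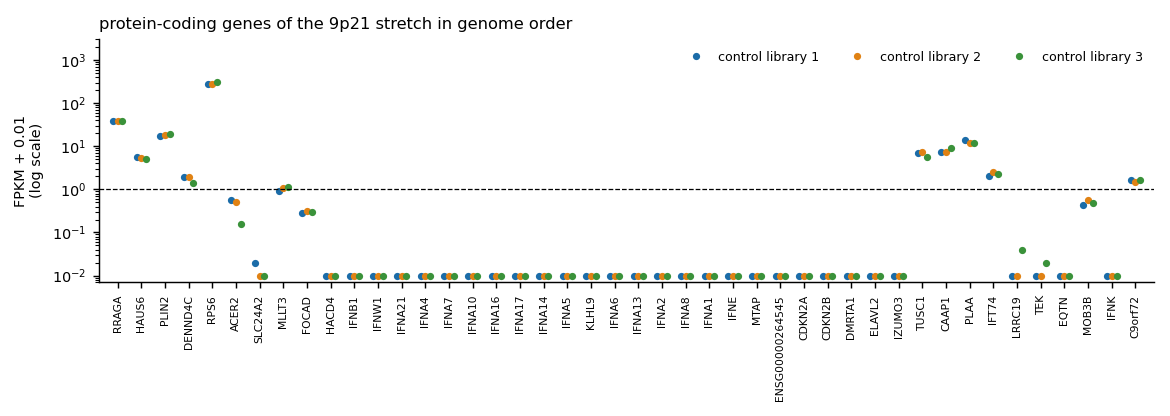
FPKM + 0.01 on a log axis for protein-coding genes around CDKN2A in genome order from RRAGA to C9orf72, with 1 point for each of the 3 control libraries and a dashed line at 1 FPKM. The 25 genes from HACD4 to IZUMO3 lie at 0.01, which is a count of 0 in every library, between FOCAD and TUSC1, which have counts in each.

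Other silent stretches follow gene families. Of 38 runs of at least 10 neighbouring protein-coding genes with no counts, which hold 672 genes, 15 contain olfactory receptors. The longest, on chromosome 11 from OR4B1 to OR5AR1 (48216810 to 56664687), has 61 genes, 54 of them olfactory receptors. A run of 19 keratin genes on chromosome 12 from KRT83 to KRT4 (52314301 to 52814116) includes KRT5 and the KRT6 genes. A run of 15 genes on chromosome 19, from KLK1 to KLK13 (50819146 to 51065114), covers most kallikrein proteases. A run of 15 on chromosome 6, from H4C4 to H3C8 (26188710 to 26271815), is made up almost wholly of replication-dependent histone genes, whose transcripts lack a poly(A) tail. The labels give total RNA and name no selection step for these libraries. The X chromosome had the lowest share of genes on among chromosomes 1 to 22 and X, 36.8%, and chromosome 13 the highest, 57.9%.

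Several gene families were almost wholly silent. No counts were found for 350 of 388 olfactory receptors, 90 of 94 keratin-associated proteins, 38 of 39 beta defensins, 17 of 19 late cornified envelope genes and 10 of 11 small proline-rich genes. All 22 PRAMEF genes, a set that leaves out PRAME itself, and all 13 interferon alpha genes had none. The same held for 15 of 16 UDP glucuronosyltransferases, enzymes of drug conjugation. Over all protein-coding genes 23.0% had no counts. None of the olfactory receptors was on, beside 50.0% of all protein-coding genes. Other families of restricted expression were silent in part: 16 of 27 taste receptors and 17 of 23 MAGE-A and MAGE-B antigens had no counts, while MAGEB2, at 1.78 ± 0.207 FPKM, and OPN3, an opsin found outside the eye, at 1.13 ± 0.116 FPKM, were on (SD, n = 3 each). Many members of these families are near copies of each other, so reads that match several members may have been left uncounted.

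In some families the highest member stood well above the others. PAGE5, a cancer-testis antigen, was at 55.0, 55.8 and 60.2 FPKM, in a family of 24 in which 18 had no counts and XAGE1A was the other member on, at 1.48 ± 0.316 FPKM (SD, n = 3). CYP1B1, an enzyme that hydroxylates estrogens, was at 75.4, 68.9 and 60.3 FPKM, in a group of 35 of which 6 were on, with CYP3A5 next at 4.93 ± 0.639 FPKM (SD, n = 3). MT2A was 13.1 ± 0.381 times MT1E (SD, n = 3), and of 11 metallothioneins 4 were on and 6 had no counts. The shares over all protein-coding genes were 50.0% on and 23.0% without counts.

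The homeobox clusters differed. In the HOX A cluster, whose genes set position along the body axis, none of 11 genes was on and 9 had no counts. Among all protein-coding genes 50.0% were on and 23.0% had no counts. HOXB9 was on at 4.08, 3.95 and 4.17 FPKM and HOXD4 at 2.55, 4.84 and 3.98 FPKM, with library 1 the low one for HOXD4. None of the 9 HOX C genes was on, and 6 of them lay between. At the other end, 79 of 81 cytosolic ribosomal protein genes were on with a median of 141 FPKM, as were 46 of 48 proteasome subunits and 10 of 12 annexins, which bind membranes in the presence of calcium.

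Of 27 long noncoding RNAs, a list chosen for well-known members, 20 were on, 3 lay between and 4 had no counts, while 165 of 7519 genes of the class lincRNA, 210 of 5554 antisense genes and 18.1% of all listed genes were on. NORAD, which sequesters Pumilio proteins, was highest at 70.4, 65.1 and 61.3 FPKM. MILIP, the target of the siRNAs in the rest of the study (chromosome 17, 81927829 to 81930753, plus strand), was at 4.33, 4.35 and 4.53 FPKM here, from 133, 126 and 148 counts. The treatment text names siRNAs against PLANE in place of MILIP. PLANE is the gene MELTF-AS1, which had 35, 26 and 56 counts and overlaps MELTF on the opposite strand. HOTAIR, H19, MEG3 and MIR31HG had no counts.

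Markers of other cell types were mostly off. Among all protein-coding genes 50.0% were on, 36.4% were off and 23.0% had no counts. Of 11 fibroblast markers none was on, COL1A2, DCN, LUM, FAP and PDGFRA had 0 counts, and the summed level was 2.14 to 2.77 FPKM per library. Of 15 leukocyte markers 3 were on, and PTPRC and CD3E, which define leukocytes and their T cells, had 0 counts. Their summed level of 85.1 to 92.5 FPKM was nearly all LAPTM5, a lysosomal protein, at 89.5, 84.4 and 81.5 FPKM. Of 10 endothelial markers 2 were on, 3 lay between and 5 were off, VWF and CDH5 among them. Most of the endothelial sum of 53.2 to 61.1 FPKM was ESAM, an adhesion molecule, at 49.6, 52.2 and 57.7 FPKM.

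The erythroid markers were not on in any of 11 cases, with HBA1 and HBB at 0 counts and a sum of 0.120 to 0.170 FPKM. Of 11 neuronal markers GAD1 alone was on (sum 1.53 to 1.80 FPKM), of 8 melanocyte markers MITF alone (2.41 to 2.69) and of 8 liver markers SERPINA1 alone (1.81 to 2.44). RBFOX3, SYP and SNAP25 were off, TYR had 0 counts, and ALB was off. The share on over all protein-coding genes was 50.0%.

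The 3 libraries were close to each other, and library 3 stood somewhat apart. The common biological coefficient of variation by edgeR was 0.0753 over 13766 genes, and 0.0455 without library 3. Over 9922 protein-coding genes with a mean of at least 100 counts the coefficient of variation of FPKM had a median of 6.74%, beside 3.82% from counting alone, and 200 genes exceeded 20%. Library 3 read higher for short genes, by 0.19 on the log2 scale over 91 genes under 1000 exonic bases, and lower for long ones. SMN1, a splicing assembly factor, had the largest excess, with 290, 291 and 1036 counts, and its near-identical copy SMN2 makes its value uncertain. EBPL, a sterol isomerase relative, was at 18.99, 15.4 and 7.32 FPKM, and MUC5AC, a secreted mucin, at 4.62, 3.66 and 2.04 FPKM, both lowest in library 3.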

How the data were processed

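The labels of the MDA-MB-231 libraries give total RNA, and whether RNA was selected before sequencing is not stated. The 3 control libraries used here hold 15281220 to 17241852 counts. Raw counts per gene were made by the authors and deposited. Tools named by the submitters' processing notes, with no role given, are HTSeq 0.6.1, HISAT2 2.0.1, Trimmomatic 0.30 and DESeq. FPKM values were also made by the authors and deposited, and 100% of them equal the count over exonic size and library total to within 0.005. Coordinates in the table are GRCh38, since 99.98% of 58394 genes overlap their GENCODE v29 position, although hg19 is the build in the notes. Whether counting used strand is not stated. Among the 723 genes of the lists, 375 share bases with a gene on the other strand and 234 with a gene on their own.

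Symbols for 60401 of 60612 identifiers were looked up in a reference table, and 211 were taken from the file. RNA classes came from GENCODE v29. There is no test between groups. Means and SDs are over libraries. The spread was estimated with edgeR 4.0.16 in R 4.3.3 after filterByExpr and TMM scaling, with an intercept only. The FPKM arithmetic and the dispersion estimate were tested on simulated data. Python 3.11.15 served for the rest. Promoters are RefSeq's (GRCh38.p14), used for 11319 of 19874 protein-coding genes, those with 1 listed start.

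Genes of 32 lists and 60 families could be named, beside the 30 most abundant genes, the 10 most abundant per RNA class, the highest members of each family, the 10 with the largest excess spread, and genes of the longest silent runs. The members and lists were chosen with earlier results of these data known. Chosen after values were seen were the ratios, the printed promoters and their motifs, the length classes, the minimum run of 10 genes, and a narrower name pattern for the SSX family. Alternatives were FPKM of 0.5 or 2, TPM of 1, 10 counts, the mean in place of each library, other scalings (TMM, size factors of DESeq2 1.42.0), a geometric mean with a pseudocount of 1, other filters, and each library left out. Some genes that the rule could name are not reported here.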

Additional observations from a re-analysis of the deposited data

How the results depend on the processing

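Of 95 alternatives over 14 results, 90 stayed within 1.5 times of a count or within the spread of a value. Of 40 epithelial junction genes 29 had at least 10 counts in each library, beside 18 on. Under a mean FPKM of 0.1 there were 7235 protein-coding genes, beside 4568 without counts. The 100 most abundant genes held 17.1% of counts without mitochondrially encoded genes and 16.5% when ranked by FPKM, beside 20.1%. Leaving out 1 library gave a coefficient of variation of 0.0455 (without library 3) to 0.0905, and 9980 to 10029 protein-coding genes on. Epithelial junction genes on numbered 24 at an FPKM of 0.5 and 27 at a TPM of 1, with 10828 and 11361 protein-coding genes on. Without library 3 they numbered 21, with 10029 protein-coding genes on. Their share on lay below that of all protein-coding genes in the report. It lay above that share under these alternatives and at 10 counts (11941 protein-coding genes). The cause was not tested. Ratios between genes and orders of levels were not rerun. No paired analysis was possible because 1 group was described on its own. Depth limits the silent genes: 3 counts are 0.174 to 0.196 CPM.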
